A study of Arabidopsis thaliana with 6 samples.

Results

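Gibberellins are growth hormones whose level is set by 3 families of oxidases. The 20-oxidases and 3-oxidases carry out the last steps that make the bioactive hormones. The 2-oxidases inactivate the bioactive hormones or their precursors. The bHLH factor PIF4 promotes elongation of dark-grown seedlings, and the DELLA proteins that gibberellin removes bind PIF4 and keep it off DNA. PIF4 binding was examined here at 10 gibberellin oxidase genes out of 27444 protein-coding genes of the nuclear chromosomes. The 5 synthesis genes were GA20OX1, GA20OX2, GA20OX3, GA3OX1 and GA3OX2. The 5 catabolism genes were GA2OX1, GA2OX2, GA2OX4, GA2OX6 and GA2OX8. A peak was assigned to a gene when it overlapped the gene body or the 3 kb on either side. This gave 26 of 19201 peaks.

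Whole Arabidopsis thaliana seedlings were used for ChIP-seq, in which DNA bound by the Myc-tagged protein was precipitated with anti-Myc and sequenced. One group overexpressed Myc-tagged PIF4 and is called P1M in the design text, and the other was the wild type, without the tagged protein. In both, germination was started by 3 h of white light and seedlings then stayed dark for 3 days at 21 °C. Each group had 3 libraries, and every library was a pool of 4 ChIP assays that covered 2 biological replicates. The labels do not give the promoter of the transgene or the number of independent lines. The deposited files were 3 peak lists, numbered by PIF4-Myc replicate, with the wild-type ChIP inside each list as its control.

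List 1 held 12177 peaks, list 2 held 4093 and list 3 held 2931, from 12766185, 9385807 and 12292381 treatment tags. List 1 stood apart: 51.2% of its peaks had a fold enrichment below 1, and all its tag values were multiples of 5. Fold enrichment is the authors' ratio of tags at the summit, the highest point of a peak, to the local expectation. Its median was 0.99, 2.46 and 4.17 in lists 1, 2 and 3, so folds were read only within a list. Lists 1 and 2 named the same control. Where peaks of lists 2 and 3 overlapped, their starts were identical in 1240 of 2454 pairs (50.5%), so a peak in both was not read as 2 independent observations. Each fold is the value of 1 peak without replicate error. The number of lists with a peak is the only measure of repetition.

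In lists 2 and 3, peaks lay at 4 of the 10 genes: GA20OX3, GA2OX4, GA2OX6 and GA2OX8. All protein-coding genes had a peak by the same window in 26.4% of cases in list 2, 20.2% in list 3 and 17.1% in both. In list 1, 8 of the 10 genes had a peak, against 63.5% of all genes. A merged region with peaks of at least 2 lists inside the window was called shared. The same 4 genes (40%, exact 95% interval 12.2 to 73.8) had a shared region, against 21.2% of all genes. Without list 2, or without list 3, GA20OX3 and GA2OX4 were the 2 genes with a shared region, against 6.62% and 10.4% of all genes. Regions in all 3 lists lay at GA20OX3 and GA2OX4 only, 2 of 10 genes against 6.03% of all genes. Their list 1 peaks ranked 6218 and 10950 of 12177 by p-value. A peak in at least 1 list lay at 8 of the 10 genes, against 71.4% of all genes, and GA20OX1 and GA2OX1 had none.

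**Figure D1:**
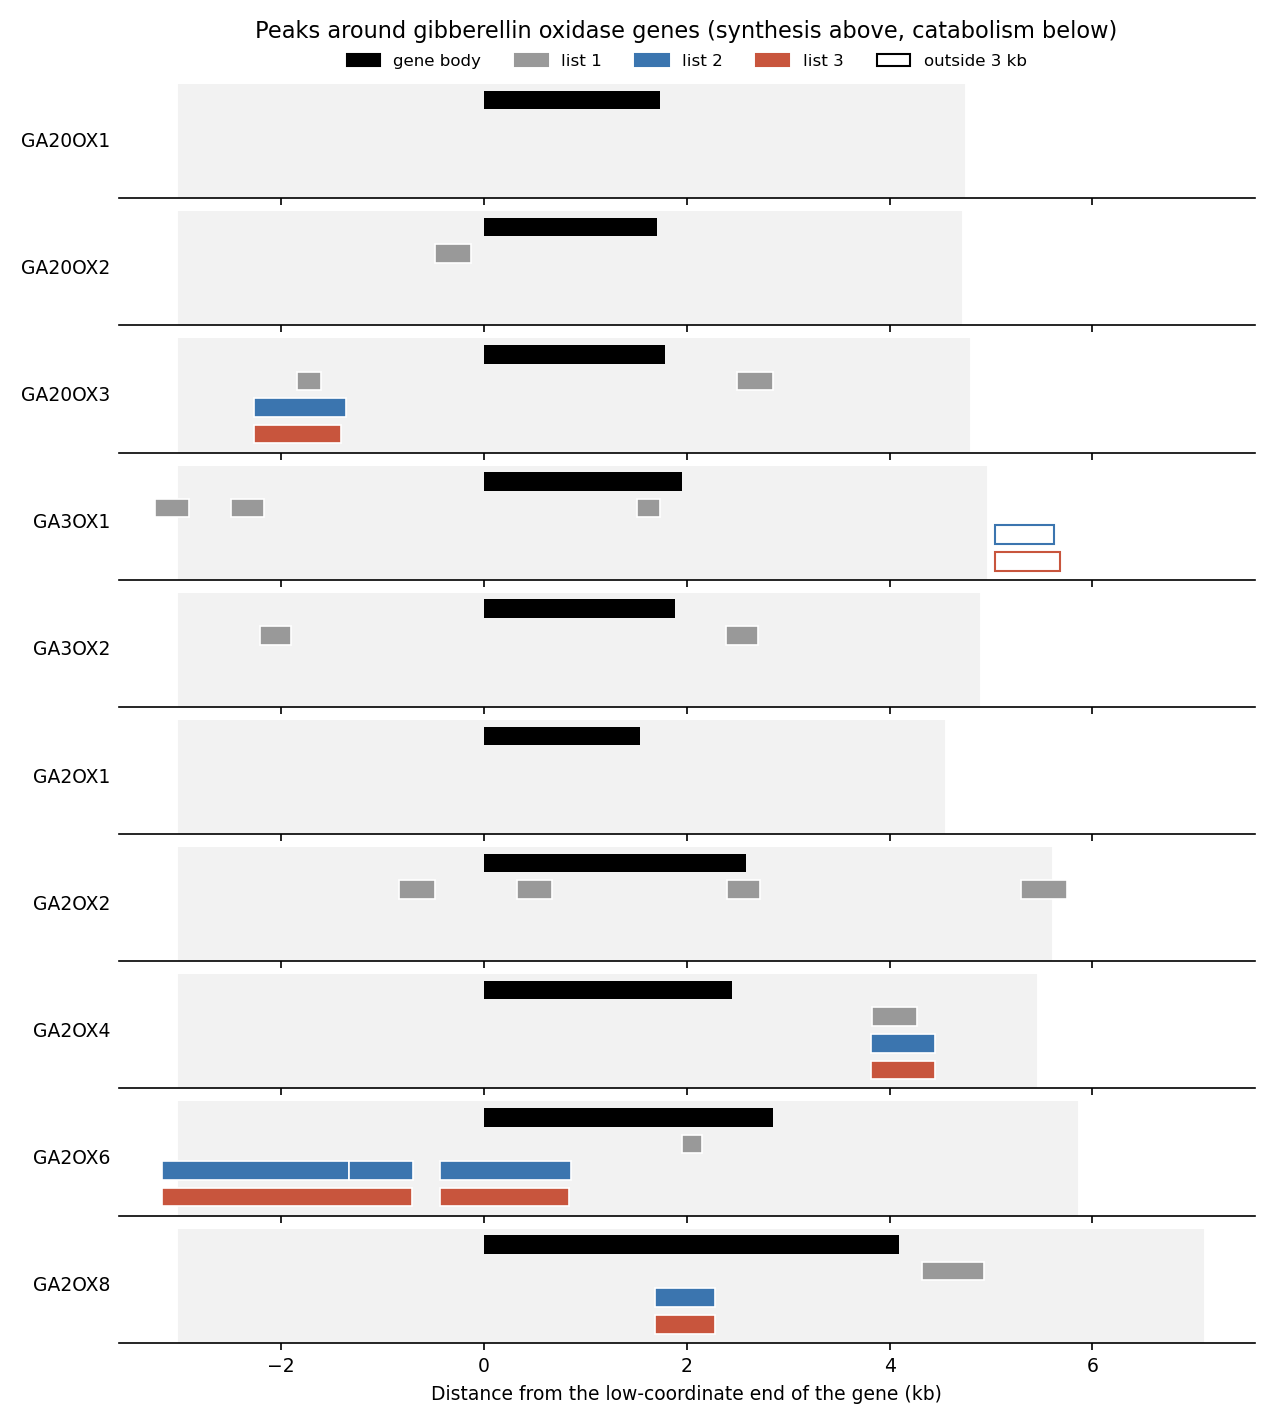
Peaks around the 10 genes, with distance from the low-coordinate end of the gene on the horizontal axis (kb), the gene body in black, the 3 kb window in pale grey and the peaks of lists 1, 2 and 3 as filled bars. Coloured blocks of lists 2 and 3 stand at GA20OX3, GA2OX4, GA2OX6 and GA2OX8, and the open bars at GA3OX1 lie 3086 bp from the gene, outside the window.

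Among the synthesis genes, 1 of 5 had a shared region (GA20OX3), and among the catabolism genes 3 of 5 had one (GA2OX4, GA2OX6 and GA2OX8). Of all genes, 21.2% had one. The exact 95% intervals were 0.505 to 71.6% for synthesis and 14.7 to 94.7% for catabolism. They cover only the counting error of 5 chosen genes each and do not compare the groups. The difference was not tested, since genes are not replicates. In list 1 the groups were equal, with 4 of 5 genes each, against 63.5% of all genes. Regions in all 3 lists were also equal, with 1 of 5 genes each, against 6.03% of all genes. Shared regions also lay at 1 of 5 genes each without list 2 or without list 3, against 6.62% and 10.4% of all genes. With a window of 1 kb, 0 of 5 synthesis genes and 2 of 5 catabolism genes had a shared region, against 12.8% of all genes. The catabolism genes were longer, with a median of 2588 bp against 1787 bp for the synthesis genes, which widens their windows. The part of gene length in the counts was not tested.

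**Figure D2:**
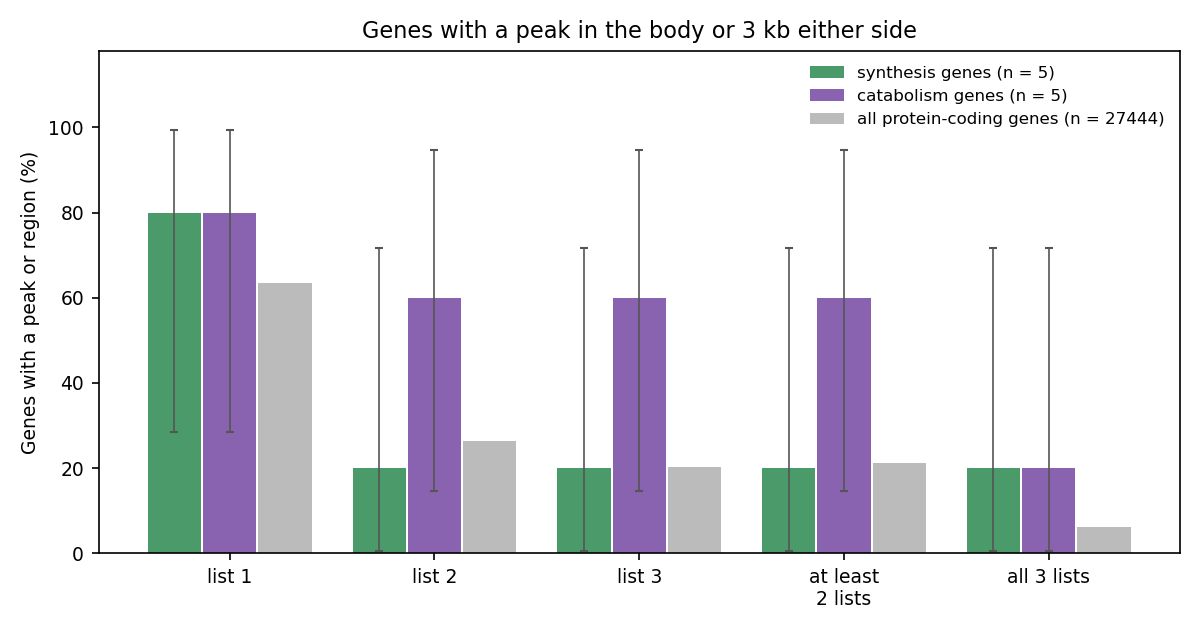
Percentage of synthesis genes, catabolism genes and all protein-coding genes with a peak in each list or with a shared region. Bars are shares and whiskers are exact 95% binomial intervals for 5 genes each. Catabolism genes stood at 60% and synthesis genes at 20% in lists 2 and 3, and both at 80% in list 1. All protein-coding genes stood at 63.5%, 26.4% and 20.2% in lists 1, 2 and 3.

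The only synthesis gene with a peak in lists 2 and 3 was GA20OX3 (AT5G07200), one of the 20-oxidases that act together in shoot growth. Its list 2 peak spanned 2241290 to 2242194 on chromosome 5 of TAIR10, with a fold of 4.37 and 226 tags (exact Poisson 95% interval 197 to 257). The list 3 peak spanned 2241290 to 2242149, with a fold of 6.85 and 165 tags (interval 141 to 192). The list 1 peak was narrower, 2241712 to 2241949, with a fold of 1.12. The 3 summits lay within 5 bp of each other, 1723, 1723 and 1728 bp from the low-coordinate end of GA20OX3 in lists 1, 2 and 3. GA20OX3 was the nearest protein-coding gene to each of them. By p-value the peak ranked 6218 of 12177 in list 1, 258 of 4093 in list 2 and 376 of 2931 in list 3. The authors' false discovery rate was 3.88%, 8.14% and 17.55% in lists 1, 2 and 3. Its median over all peaks was 3.81%, 63.9% and 65.2% in these lists, so these rates too were read only within a list. The fold placed it at percentile 93.0 of list 2 and 89.8 of list 3, the highest of the oxidase peaks in each of these lists. By p-value, a GA2OX6 peak ranked ahead of it in list 3. GA20OX3 also had a list 1 peak on the other side of the gene, 966 bp away, with a fold of 1.28.

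The other 20-oxidase genes had no peak in lists 2 or 3 within the window. GA20OX1 (AT4G25420), a main 20-oxidase of stem elongation, had its nearest peaks 4813, 10768 and 5494 bp from the gene in lists 1, 2 and 3. GA20OX2 (AT5G51810), which overlaps in function with GA20OX1, had a single list 1 peak at 21054699 to 21055051 on chromosome 5. Its fold was 1.38, and its summit lay 244 bp from the gene. The nearest list 2 and list 3 peaks were 14527 and 61835 bp from GA20OX2.

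The 3-oxidase genes carry out the final activating step and had peaks of list 1 alone inside the window. GA3OX1 (AT1G15550), a main 3-oxidase of vegetative growth, had a list 1 peak in the gene body at 5345903 to 5346123 on chromosome 1, with a fold of 1.32. Its 2 other list 1 peaks, with folds of 0.99 and 1.07, had summits nearest to the neighbouring gene AT1G15530. GA3OX1 also showed where the window ends. Lists 2 and 3 had peaks at 5349428 to 5350008 and 5349428 to 5350070, whose edges were 3086 bp from the gene and thus 86 bp beyond the limit. Their folds were 3.19 and 4.92, at percentiles 77.3 and 68.2 of their lists, and their false discovery rates 43.44% and 56.51%. GA3OX1 was the nearest protein-coding gene to both summits, 3401 bp away. Just inside the limit lay the GA3OX1 list 1 peak at 5341150 to 5341484, 2904 bp from the gene, with a fold of 0.99. With a window of 5 kb, shared regions lay at 2 of 5 synthesis genes and 3 of 5 catabolism genes, against 28.6% of all genes.

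GA3OX2 (AT1G80340), which acts with GA3OX1 in germinating seedlings, had 2 list 1 peaks. The one at 30202854 to 30203173 on chromosome 1 had a fold of 1.02 and its summit 581 bp from GA3OX2. The other, at 30198257 to 30198561 with a fold of 1.19, had its summit inside the neighbouring 3-oxidase gene GA3OX4 and counts for both windows. The nearest list 2 and list 3 peaks were 11822 and 11849 bp from GA3OX2.

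Among the catabolism genes, GA2OX4 (AT1G47990) had the shared region found in all 3 lists. This gene and GA2OX1, GA2OX2 and GA2OX6 encode 2-oxidases that act on the bioactive hormones and their immediate precursors. On chromosome 1, list 1 had a peak at 17702423 to 17702868. List 2 had one at 17702420 to 17703042, and the list 3 peak was 1 base shorter at its end, 17702420 to 17703041. Their folds were 0.96, 3.32 and 5.90, at percentiles 47.0, 79.9 and 82.4 of their lists. The list 2 peak held 154 tags and the list 3 peak 117, with false discovery rates of 49.97% and 45.28%. The list 1 peak had a rate of 13.38%, against a median of 3.81% over all list 1 peaks. By p-value the peaks ranked 10950 of 12177, 1505 of 4093 and 965 of 2931 in lists 1, 2 and 3. The 3 summits fell within 20 bp of each other, 1649 to 1669 bp from GA2OX4. They were nearer to MYB112, a MYB transcription factor gene, at 1422 to 1442 bp. The files do not show which of these neighbours, if either, the binding concerns.

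GA2OX6 (AT1G02400) had 3 peaks in list 2 and 2 in list 3, while no other oxidase gene had more than 1 in either. In list 3 a peak of 2461 bp spanned 483632 to 486092 on chromosome 1, with a fold of 6.14 and 450 tags. By p-value it ranked 293 of 2931, ahead of the GA20OX3 peak at 376, with a false discovery rate of 13.99% against 17.55%. List 2 had 2 peaks over the same stretch, at 483632 to 485472 and 485474 to 486101, with folds of 3.58 and 2.98. The first of these ranked 886 of 4093, behind GA20OX3 at 258, with a false discovery rate of 27.88% against 8.14%. The summits of the stronger peaks, 2212 and 2217 bp from GA2OX6 in lists 2 and 3, were nearer to GPAT2, an acyltransferase gene, at 1215 and 1210 bp. A weaker region began at 486368 in lists 2 and 3 and ran across the low-coordinate end of GA2OX6, with its summit 106 bp outside the gene in both. Its folds of 2.10 and 3.62 stood at percentiles 27.6 and 31.3, and its false discovery rates were 65.87% and 94.73%. The single list 1 peak at GA2OX6 lay elsewhere, inside the gene, with a fold of 0.88.

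GA2OX8 (AT4G21200) encodes a 2-oxidase of the class that acts on earlier precursors. It was the single oxidase gene with list 2 and list 3 summits inside the gene body. Both peaks spanned exactly 11304370 to 11304963 on chromosome 4, with folds of 2.40 and 3.73. They held 88 tags (exact Poisson 95% interval 70.6 to 108) in list 2 and 74 (58.1 to 92.9) in list 3. They ranked low by p-value, 3095 of 4093 and 2672 of 2931, with false discovery rates of 81.1% and 96.26%. The list 1 peak, with a fold of 0.65, had its summit inside the neighbouring gene RP1, a regulator of pyruvate phosphate dikinase.

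GA2OX2 (AT1G30040) had the most list 1 peaks, 4, and no peak of lists 2 or 3 within the window. The list 1 folds were 1.38, 1.20, 1.08 and 1.64, and the highest belonged to a peak whose summit was 46 bp from the neighbouring gene AT1G30050. The nearest list 2 and list 3 peaks were 7187 and 15985 bp from GA2OX2. GA2OX1 (AT1G78440) had its nearest peaks 14459, 12481 and 6501 bp away in lists 1, 2 and 3.

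**Figure D3:**
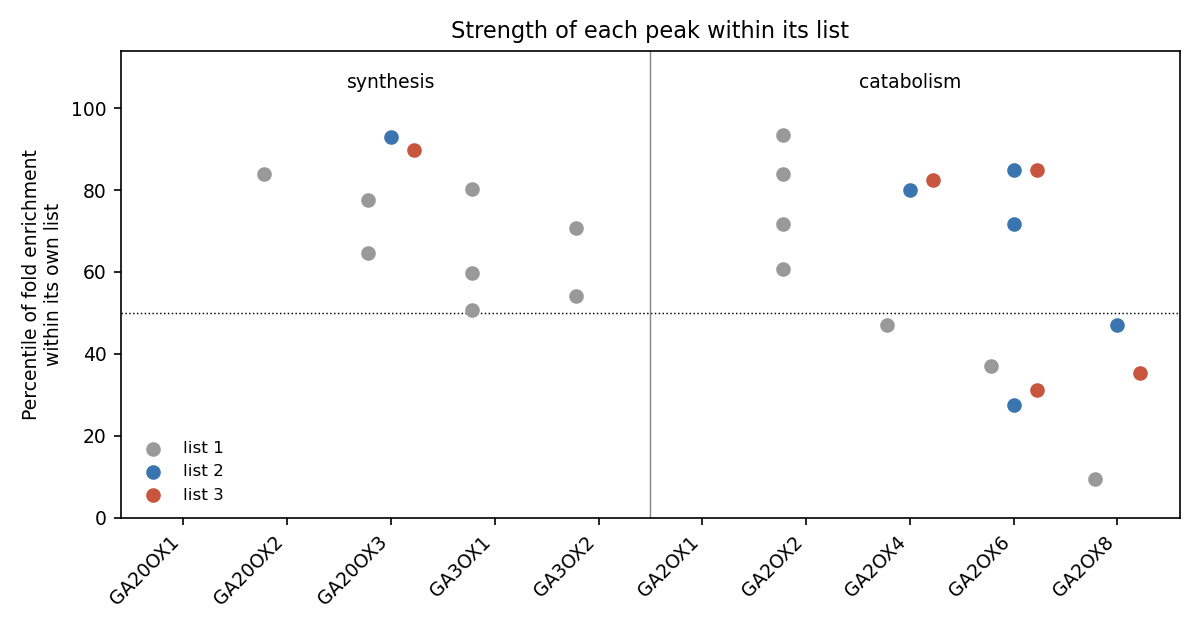
Percentile of fold enrichment within its own list (vertical axis, 0 to 100) for each of the 26 peaks, by gene. Points are single peaks and the dotted line is the middle of the list. GA20OX3 stands highest in lists 2 and 3, GA2OX4 and the stronger of the farther GA2OX6 peaks follow at 79.9 to 85.0, and GA2OX8 and the nearer GA2OX6 peaks lie below the line.

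Across the 5 shared regions, strength in lists 2 and 3 followed the same split, though these lists were not read as independent observations. The regions with a list 2 fold above that list's median of 2.46, at GA20OX3, GA2OX4 and the farther stretch of GA2OX6, were above the list 3 median of 4.17 as well. The regions closest to a catabolism gene, at the GA2OX6 edge and inside GA2OX8, were below both medians. List 3 folds were 1.55 to 1.78 times those of list 2 in these regions, against a median of 1.59 over all 2454 overlapping pairs of lists 2 and 3 (quartiles 1.46 and 1.73). All 5 list 3 peaks began at the same base as a list 2 peak. Of the 26 oxidase peaks, 0 had a false discovery rate of 1% or less. Few peaks of any gene reached this level: 166 of 12177, 85 of 4093 and 2 of 2931 in lists 1, 2 and 3.

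**Figure D4:**
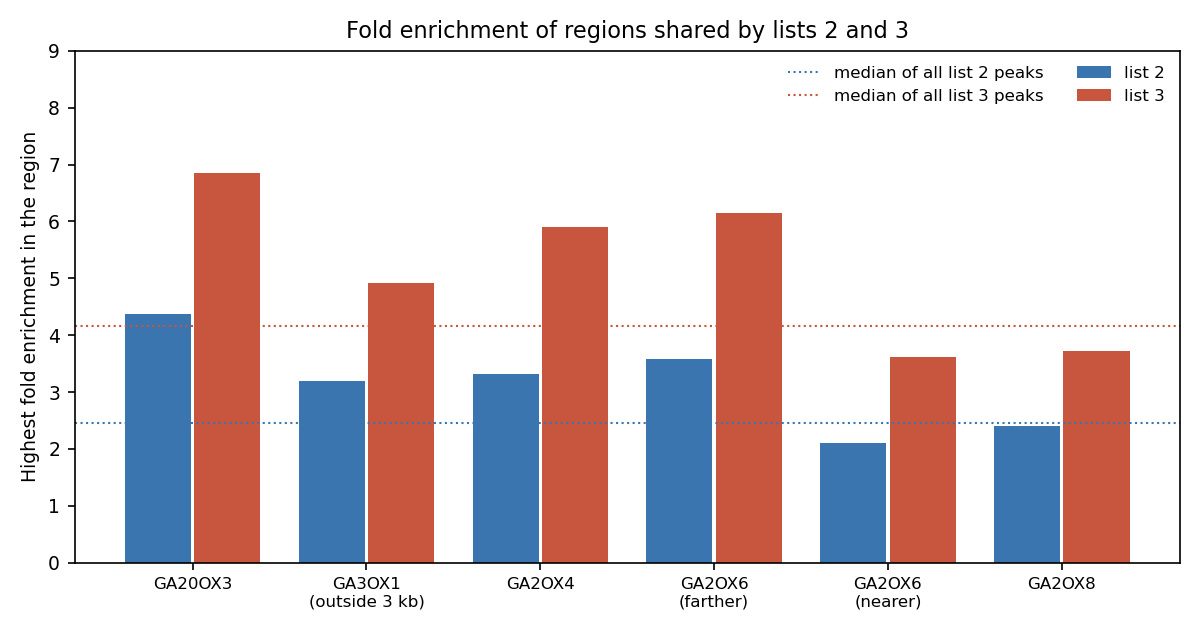
Highest fold enrichment of lists 2 and 3 (vertical axis, authors' ratio for single peaks) in the 5 shared regions and in the GA3OX1 region outside the 3 kb window. Dotted lines are the medians of all peaks of lists 2 and 3, at 2.46 and 4.17. GA20OX3, at 4.37 and 6.85, is highest in both lists.

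The remaining 13 of the 18 merged regions rested on list 1 alone, 7 at synthesis genes and 6 at catabolism genes. List 1 holds 12177 of all 19201 peaks. The matching share over all merged regions is not given here, so the count is not read as a trait of these genes. The 15 list 1 peaks of the 10 genes had folds from 0.65 to 1.64, with 4 below 1. Of these 15 peaks, 7 held 65 tags, the lowest value in list 1, which 26.8% of all list 1 peaks share. The 10 chosen genes had 1.5 list 1 peaks per gene against 1.03 for all genes, 0.6 against 0.326 in list 2 and 0.5 against 0.241 in list 3. These averages leave out the 6 other oxidase genes, which had no peak in list 2 or 3. Only GA2OX6 had more than 1 peak in list 2 or in list 3. The summit was nearest to the oxidase gene itself in 16 of the 26 cases. The same share for all genes is not given here, so this count is not read as high or low.

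Elsewhere in the gibberellin pathway, a shared region lay at 6 of 20 genes (30%), against 21.2% of all genes. None of the 6 other oxidase genes (GA20OX4, GA20OX5, GA3OX3, GA3OX4, GA2OX3 and GA2OX7) had a peak in list 2 or 3, against 26.4% and 20.2% of all genes. The exact 95% interval of this share reaches 45.9%. In list 1, 3 of these 6 genes had a peak, against 63.5% of all genes. A shared region lay at 4 of the 10 chosen genes (40%) and at 0 of these 6, against 21.2% of all genes. The 40% covers the chosen genes only and would be lower with these 6 included. Of the 5 early synthesis genes, KAO1 and KAO2 had a shared region, and both encode ent-kaurenoic acid oxidases. The KAO1 peaks had folds of 3.19 and 5.83 in lists 2 and 3, with the summit 310 bp from KAO1 but 41 bp from AT1G05150. The KAO2 peaks, at 1.98 and 3.23, had summits 3712 bp away and nearest to AT2G32450. False discovery rates in lists 2 and 3 were 55.77% and 47.9% for KAO1, and 76.89% and 76.34% for KAO2. Among 9 perception and signalling genes, the receptor genes GID1B and GID1C and the DELLA genes GAI and RGA had a shared region. The highest list 3 folds in their windows were 6.92, 3.06, 11.6 and 6.96 in that order. The false discovery rates of these 4 peaks were 22.35%, 97.59%, 11.11% and 13.92%, and the GID1C peak ranked 2779 of 2931 by p-value. GA20OX3 in list 3, with a fold of 6.85, lay just below GID1B and RGA. The highest GAI fold belongs to a peak whose summit was 3284 bp from GAI and nearer to AT1G14910. GAI had another list 3 peak, at 5147641 to 5148380 on chromosome 1, with a fold of 8.08, its summit 932 bp from GAI and GAI as the nearest gene.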

How the data were processed

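The authors deposited 3 peak lists, called per PIF4-Myc library against a wild-type ChIP with MACS 1.4.0rc2 (lists 1 and 3) or 1.4.1 (list 2), with the band width at 300 bp and the p threshold at 1e-05, per the file headers. Bowtie 0.12.7, CASAVA 1.8.0 and the build TAIR10 are named in the submitters' processing notes, beside MACS 1.4.1. Tags of lists 2 and 3 are deposited counts of reads within a peak. Tags of list 1, and the deposited peak score, a multiple of −log10 of the p-value, were used as scores. Fold enrichment is the authors' ratio for each peak, and their false discovery rate is in percent. The list 1 header gives 112342435 tags after filtering, more than its total, and its control total is unreadable.

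Genes came from RefSeq TAIR10.1, which carries no strand or exons here, so sides are given by coordinate. Nuclear coordinates were taken to be the same: 64.6% of list 3 summits lay outside genes, against 42.7% and 45.0% after shifts of 2000 bp. Only peak positions are printed. Members and lists were chosen with earlier results of these data known; all 30 pathway genes were found. All oxidase genes of the rule were named, with up to 6 shared pathway genes by list 3 fold. No test over genes was made; exact intervals cover counting error only. The window assignment was tested on simulated data. Motifs and sequences were not analysed here. Alternatives were windows of 1 and 5 kb, summits within 3 kb, the nearest gene, a false discovery rate of 1%, the better-ranked 50%, the best 2931 peaks of each list, a reciprocal overlap of 50%, summits within 100 bp and each list left out. Python 3.11.15, pandas 2.3.3 and SciPy 1.17.1 were used.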

Additional observations from a re-analysis of the deposited data

How the results depend on the processing

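Counts of oxidase genes stayed within 1.5 times the main count in 41 of 60 comparisons with an alternative. This limit passes a fall from 3 to 2 catabolism genes. With the nearest gene alone, 1 synthesis gene and 2 catabolism genes (GA2OX6 and GA2OX8) had a shared region, against 9.53% of all genes. With the better-ranked 50%, or with equal numbers of peaks, the counts were again 1 and 2 (GA2OX4 and GA2OX6), against 10.8% and 16.1% of all genes. With a window of 1 kb, 2 of 10 genes had a shared region (GA2OX6 and GA2OX8), 0 of them synthesis genes, and 2 had a peak in list 2 and in list 3, against 16.4% and 12.2% of all genes. With 5 kb, 2 synthesis genes had a shared region. At a false discovery rate of 1%, 0 genes remained in every count, where 0.802%, 0.67% and 0.00729% of all genes had a list 1, 2 or 3 peak. List 1 reached 5 of 10 genes with its better-ranked 50% and 2 of 10 with equal numbers of peaks, against 37.9% and 19.2% of all genes. Leaving out each list in turn gave 2 to 4 genes with a shared region, 1 to 1 for synthesis and 1 to 3 for catabolism; without list 2 or without list 3, GA20OX3 and GA2OX4 alone had one. The same 2 genes had a shared region when it had to hold a list 1 peak, an alternative added once the data had been seen, with 1 catabolism gene among them and 11.2% of all genes. No paired analysis was possible because the peak lists analysed give the wild type no values of its own to pair, and the counts come from no test. Without depth per position, folds carry no counting interval, and 5 genes per group leave wide intervals on every share.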
